A study of Mus musculus with 30 samples.

Results

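The SLC25 genes encode the mitochondrial carriers, a family of transporters that exchange nucleotides, phosphate, carboxylates, amino acids and cofactors across the inner mitochondrial membrane. Every gene of the deposited table whose symbol is SLC25A followed by a number was taken as a member, which gave 47 of 21073 genes. Their RNA was measured by RNA-Seq of extensor digitorum longus (EDL) muscle, a fast muscle of the lower hind limb, from 30 female SJL/J mice. The study describes no genetic modification of these mice. The mice formed 6 groups of 5: unimmunized mice (Ctrl), mice given ovalbumin (OVA) in complete Freund's adjuvant (CFA), and mice with experimental autoimmune encephalomyelitis (EAE), each taken on day 14 or day 40. EAE was induced with the myelin peptide [Ser140]-PLP139-151 in the same adjuvant, without pertussis toxin. Different mice were taken on each day, and their age is not given in the sources used here. The OVA group shared the adjuvant but not the myelin antigen, so the comparison of EAE with OVA asks about EAE beyond the adjuvant. Day 14 lay at the peak of disease and day 40 in remission.

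In outline, most substrates that a mitochondrion burns, and the ATP it returns to the cytosol, pass through a member of this family. The ADP/ATP carrier brings ADP in and ATP out, the phosphate carrier brings the phosphate for ATP synthase, and the oxoglutarate/malate and aspartate/glutamate carriers together move the reducing equivalents of cytosolic NADH. Skeletal muscle is known for its high content of the muscle form of the ADP/ATP carrier, SLC25A4. Levels are given as RPKM, read counts scaled to exon length and to the depth of the library, a scale per length on which genes can be compared. Depth was estimated at 18.2 to 31.9 M reads per mouse from the step that 1 read adds. Replicate 1 of the unimmunized and replicate 1 of the OVA-immunized mice of day 14 stood apart. The median correlation with the other mice of the group, over log2 RPKM, was 0.960 and 0.962 for them and 0.972 to 0.991 for the other mice. The labelled tissue held its markers: the 10 fast-fibre markers summed to 74064 to 102007 RPKM in the unimmunized mice of day 14, and the 8 slow-fibre markers to 1852 to 3061 RPKM. The data came from whole muscle, in which fewer cells of a type and less RNA per cell cannot be told apart.

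The carriers spanned a wide range of levels. In 31 members the mean passed 3 RPKM in some group, 11 had a mean below 1 RPKM in every group, and 5 lay between (SLC25A10, SLC25A14, SLC25A30, SLC25A40 and SLC25A45). The 11 low members were SLC25A2, SLC25A13, SLC25A18, SLC25A21, SLC25A31, SLC25A41, SLC25A43, SLC25A47, SLC25A48, SLC25A53 and SLC25A54. The summed level of the 47 members was 5324 ± 535 RPKM (SD, n = 5) in the unimmunized mice of day 14, which was 1.00% ± 0.072 of all RPKM, and SLC25A4 alone made up 76.4% ± 1.67 of that sum. In the EAE-induced mice of day 14 the sum was 3256 ± 413 RPKM, 0.679% ± 0.0517 of all RPKM, and SLC25A4 made up 68.6% ± 3.88 of it. Without SLC25A4, the other 46 members summed to 1253 ± 67.3 RPKM in unimmunized, 1371 ± 92.3 in OVA-immunized and 1010 ± 22.3 RPKM in EAE-induced mice of day 14. In order of their level in unimmunized mice of day 14, SLC25A4 was followed by the phosphate carrier SLC25A3, the oxoglutarate/malate carrier SLC25A11, the aspartate/glutamate carrier SLC25A12 and the carnitine-acylcarnitine carrier SLC25A20. SLC25A11 and SLC25A12 overlapped in their ranges over mice (208 to 264 and 131 to 219.6 RPKM), and so did SLC25A20, the glutathione carrier SLC25A39 and SLC25A5 (32.6 to 67.7, 36.4 to 47.9 and 30.1 to 42.6 RPKM). The plot of day 14 levels shows 30 of the 31 members above 3 RPKM.

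**Figure D1:**
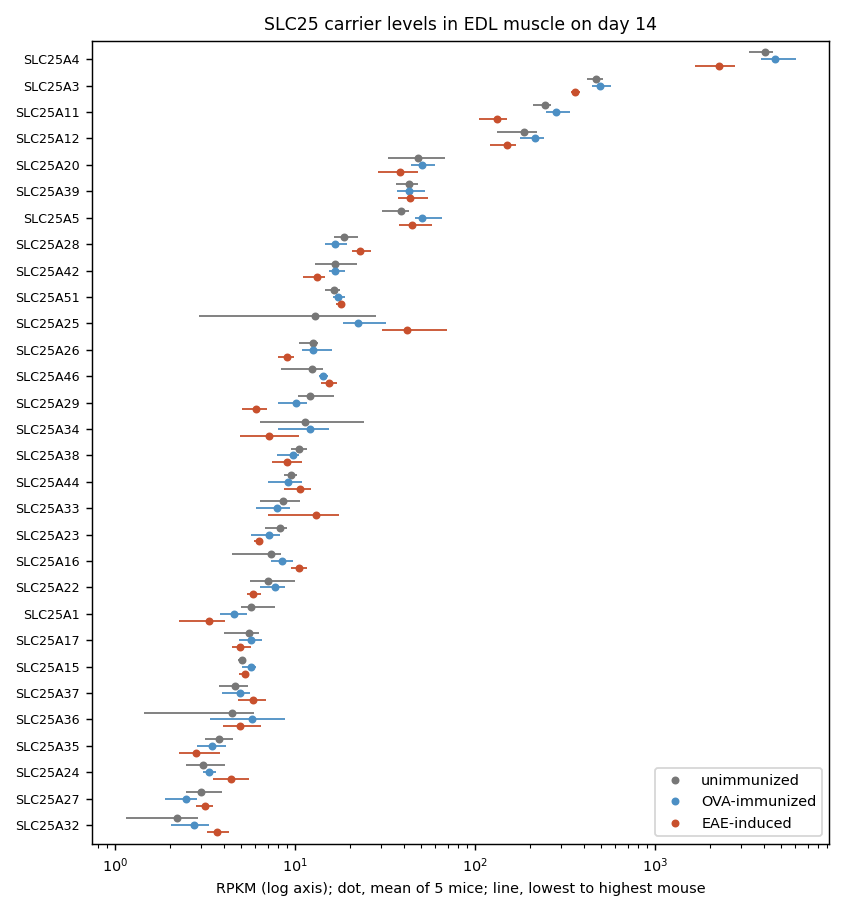
Level of 30 of the 31 SLC25 carriers whose mean passed 3 RPKM in any of the 6 groups, in RPKM on a log axis, in unimmunized, OVA-immunized and EAE-induced mice of day 14, with the mean of 5 mice as a dot and the lowest and highest mouse as a line. SLC25A4 lay far above the other carriers in each group, and the EAE range of SLC25A4, SLC25A11 and SLC25A29 lay below both control ranges.

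On day 14, 2 of the 31 members tested were higher and 5 were lower in EAE-induced than in unimmunized mice. A gene was called when limma's moderated test gave an adjusted p below 0.05 with a change above 1.5-fold, with p-values adjusted over all genes tested. The lower members included SLC25A29, SLC25A11, SLC25A4 and SLC25A1, and the higher members were SLC25A25 and SLC25A32. SLC25A32 was tested only because its EAE mean passed the filter of 3 RPKM. In each of the 7 called, the EAE-induced and unimmunized mice did not overlap. The call itself selects for separated groups, and the share of all genes without overlap was not computed. Over all 8771 genes tested, 14.6% were called higher and 11.8% lower, against 6.45% and 16.1% of the members. The share of members called lower lay near that of all genes, so the count is not a result about the family. The median log2 fold change was -0.16 over the members and 0.11 over all genes. It was negative in 16 of the 31 members (51.6%) and in 41.1% of all genes. Against the OVA-immunized mice, 4 of 31 were lower, SLC25A11, SLC25A4 and SLC25A29 among them, and 1, SLC25A33, was higher. The background there was 9.28% lower and 11% higher of 8674 genes. Without the 2 mice that stood apart, the 5 lower members against unimmunized mice were called still, the higher members were SLC25A25 and SLC25A33, and against OVA-immunized mice SLC25A12 joined the lower members. Both comparisons use the same EAE-induced mice and are given side by side for that reason.

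The ADP/ATP carrier of muscle, SLC25A4 (chr8:46206797-46211284 of GRCm38, minus strand), was the most abundant member in every group. SLC25A4 was measured at 4323, 4483, 4370.2, 3861 and 3318 RPKM in the unimmunized mice of day 14, at 6033, 3996, 3989.7, 3866 and 5314 RPKM in the OVA-immunized mice and at 2782, 1664, 2322, 2316 and 2148 RPKM in the EAE-induced mice. All 5 EAE-induced mice were below all 10 control mice of that day. By day 40 the unimmunized mice were at 3192, 3276, 2735, 3527 and 2859.6 RPKM, the OVA-immunized mice at 3327, 3378, 3179.9, 3237 and 3248 RPKM and the EAE-induced mice at 3935, 3691, 3912, 3492 and 3351 RPKM. On day 40 the 3 groups overlapped. EAE changed its log2 level by -0.87 ± 0.16 (SE) against unimmunized mice (adjusted p = 0.000578, limma) and -1.04 ± 0.16 against OVA-immunized mice (adjusted p = 0.000154, limma).

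The promoter of SLC25A4 is shown with those of 2 more members, because it carries 1 of the motifs searched and SLC25A25, the member with the largest rise, shares another with SLC25A36. Windows of 300 bases, from 250 before to 50 after the start, came from RefSeq on GRCm38.p6 and were found for 36 of the 47 members. Capitals mark CCGGAAG, the core bound by ETS factors, in SLC25A4, and TGACGTCA, the full cAMP response element, in SLC25A25 and SLC25A36.
SLC25A4, chr8:46211013-46211312, strand -: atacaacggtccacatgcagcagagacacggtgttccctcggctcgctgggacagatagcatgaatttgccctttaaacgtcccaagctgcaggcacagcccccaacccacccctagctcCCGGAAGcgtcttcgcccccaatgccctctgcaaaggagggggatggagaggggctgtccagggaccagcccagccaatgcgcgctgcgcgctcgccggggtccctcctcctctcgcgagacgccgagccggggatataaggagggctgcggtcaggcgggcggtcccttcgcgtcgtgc
SLC25A25, chr2:32424017-32424316, strand -: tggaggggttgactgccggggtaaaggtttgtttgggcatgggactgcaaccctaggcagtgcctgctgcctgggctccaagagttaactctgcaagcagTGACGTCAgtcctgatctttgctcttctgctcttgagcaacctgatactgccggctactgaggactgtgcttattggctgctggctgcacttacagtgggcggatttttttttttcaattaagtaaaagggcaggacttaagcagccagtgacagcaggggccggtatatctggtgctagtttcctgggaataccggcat
SLC25A36, chr9:97110992-97111291, strand -: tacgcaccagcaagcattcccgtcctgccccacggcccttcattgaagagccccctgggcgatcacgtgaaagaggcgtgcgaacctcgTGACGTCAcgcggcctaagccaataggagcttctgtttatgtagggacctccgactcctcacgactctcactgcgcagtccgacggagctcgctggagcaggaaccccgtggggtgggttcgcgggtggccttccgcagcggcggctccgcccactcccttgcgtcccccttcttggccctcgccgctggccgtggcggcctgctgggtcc
Both strands were searched. CCGGAAG was found in windows of 9.93% of 27025 genes and of 7 of the 36 members (SLC25A3, SLC25A4, SLC25A17, SLC25A20, SLC25A25, SLC25A38 and SLC25A54). TGACGTCA was found for 2.03% of genes and for 2 members. SLC25A25 has 3 windows, and the values here do not separate its starts. CACGTG was found for 8.09% of genes and 7 members, and AAGGTCA for 5.38% of genes and 1 member, SLC25A34. These matches are descriptions of sequence, not of binding.

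SLC25A5, the form of the ADP/ATP carrier that most dividing cells use, was far lower in this muscle. SLC25A5 was measured at 30.1, 41.8, 42.6, 39.1 and 38.6 RPKM in the unimmunized mice of day 14, at 46.9, 46.6, 47.6, 46 and 64.9 RPKM in the OVA-immunized mice and at 57.5, 45.2, 37.7, 39.2 and 43.7 RPKM in the EAE-induced mice. Its EAE range overlapped both control ranges on day 14. The mice of day 40 showed 34.6, 35.6, 34.6, 42 and 39.3 RPKM when unimmunized, 34.6, 36.9, 36.9, 37.5 and 36.8 RPKM after OVA and 38.9, 36.6, 38.5, 42 and 39.3 RPKM with EAE. Its log2 fold change on day 14 was 0.21 ± 0.14 against unimmunized mice (interval -0.08 to 0.50) and -0.18 ± 0.14 against OVA-immunized mice (interval -0.47 to 0.11), and neither was called. All SLC25A5 values of the OVA-immunized mice of day 14 were above those of the unimmunized mice, with a log2 fold change of 0.39 ± 0.14 that did not pass the adjustment (adjusted p = 0.365, limma). SLC25A4 and SLC25A5 are close paralogs, and how reads that match both were assigned is not given in the sources used here.

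The share of SLC25A4 in the sum of SLC25A4 and SLC25A5 does not depend on the scaling between mice. It was 99.3, 99.1, 99, 99 and 98.9% in the unimmunized, 99.2, 98.8, 98.8, 98.8 and 98.8% in the OVA-immunized and 98, 97.4, 98.4, 98.3 and 98% in the EAE-induced mice of day 14. The 5 EAE-induced mice all lay under the lowest of the 10 controls. The mean share was 98.0% ± 0.415 (SD, n = 5) with EAE and 99.1% ± 0.166 in unimmunized mice, a difference of -1.04 percentage points (two-sided exact permutation p = 0.00794, adjusted over 6 comparisons 0.0238). Against the OVA-immunized mice, at 98.9% ± 0.183, the difference was -0.888 percentage points (exact permutation p = 0.00794, adjusted 0.0238). This p is the smallest that 5 against 5 mice allow. As a ratio, SLC25A4 was 51 ± 9.89 times SLC25A5 in EAE-induced mice, against 108 ± 21.5 times in the unimmunized group and 92.8 ± 20.1 times in the OVA group. The other 4 comparisons of the share had adjusted exact permutation p from 0.254 to 0.381. Without replicate 1 of the OVA-immunized mice, the share in OVA-immunized mice was lower than in unimmunized mice of day 14 by -0.232 percentage points, past the threshold.

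**Figure D2:**
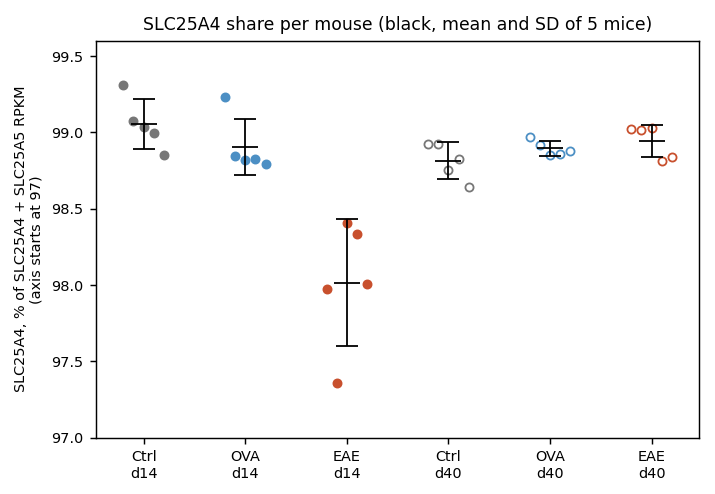
Share of SLC25A4 in the summed RPKM of SLC25A4 and SLC25A5, in percent on an axis that starts at 97, for each of the 30 mice, with the mean and SD of each group of 5 in black. The 5 EAE-induced mice of day 14 lay between 97.4% and 98.4%, and the other 25 mice between 98.6% and 99.3%.

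The phosphate carrier SLC25A3 followed SLC25A4 in level. SLC25A3 was measured at 512, 478, 498, 420.1 and 417 RPKM in the unimmunized mice of day 14, at 498, 445, 482, 480.2 and 570 RPKM in the OVA-immunized mice and at 379.6, 339, 339.8, 359.6 and 375 RPKM in the EAE-induced mice. Its EAE-induced mice were below all control mice on day 14. The log2 fold changes of -0.37 ± 0.10 (adjusted p = 0.00644, limma) and -0.46 ± 0.10 against unimmunized and OVA-immunized mice (adjusted p = 0.00191) did not reach the 1.5-fold threshold. On day 40 its level was 389, 422, 324, 466 and 342 RPKM in the unimmunized, 389.7, 392, 414, 442 and 452 RPKM in the OVA-immunized and 510.4, 457, 472, 383 and 389.9 RPKM in the EAE-induced mice. On that day the groups overlapped. SLC25A31, the ADP/ATP carrier known from testis, stayed below 1 RPKM on average in every group.

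The ATP-Mg/phosphate carriers, most of which respond to calcium, set the size of the adenine nucleotide pool in the matrix. SLC25A25 gave the largest rise of the family. SLC25A25 was measured at 2.91, 4.82, 8.09, 28.1 and 20.2 RPKM in the unimmunized mice of day 14, at 31.7, 19, 21.3, 18.3 and 20.6 RPKM in the OVA-immunized mice and at 36.1, 70.0, 40.2, 32 and 30.2 RPKM in the EAE-induced mice. The unimmunized mice of day 14 spread widely, from 2.91 to 28.1 RPKM, and stayed below the lowest EAE-induced mouse, while 1 OVA-immunized mouse lay within the EAE range. Its day 14 log2 fold change came to 2.10 ± 0.47 against unimmunized mice (adjusted p = 0.00201, limma) and 0.87 ± 0.47 against OVA-immunized mice, which was not called (adjusted p = 0.156). By day 40 the unimmunized mice were at 14, 22, 34.8, 46.9 and 37.9 RPKM, the OVA-immunized mice at 10.2, 14.8, 16.7, 17.9 and 19.8 RPKM and the EAE-induced mice at 6.79, 13.4, 26.2, 55.3 and 52.2 RPKM. On day 40 the EAE-induced mice spanned 6.79 to 55.3 RPKM and enclosed both control groups. SLC25A24 and SLC25A23 are the other measured carriers of this kind, with log2 fold changes of 0.50 ± 0.14 (adjusted p = 0.00914) and -0.38 ± 0.11 (adjusted p = 0.0104) against unimmunized mice, both below the fold threshold in limma. SLC25A41 stayed below 1 RPKM on average in every group.

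**Figure D3:**
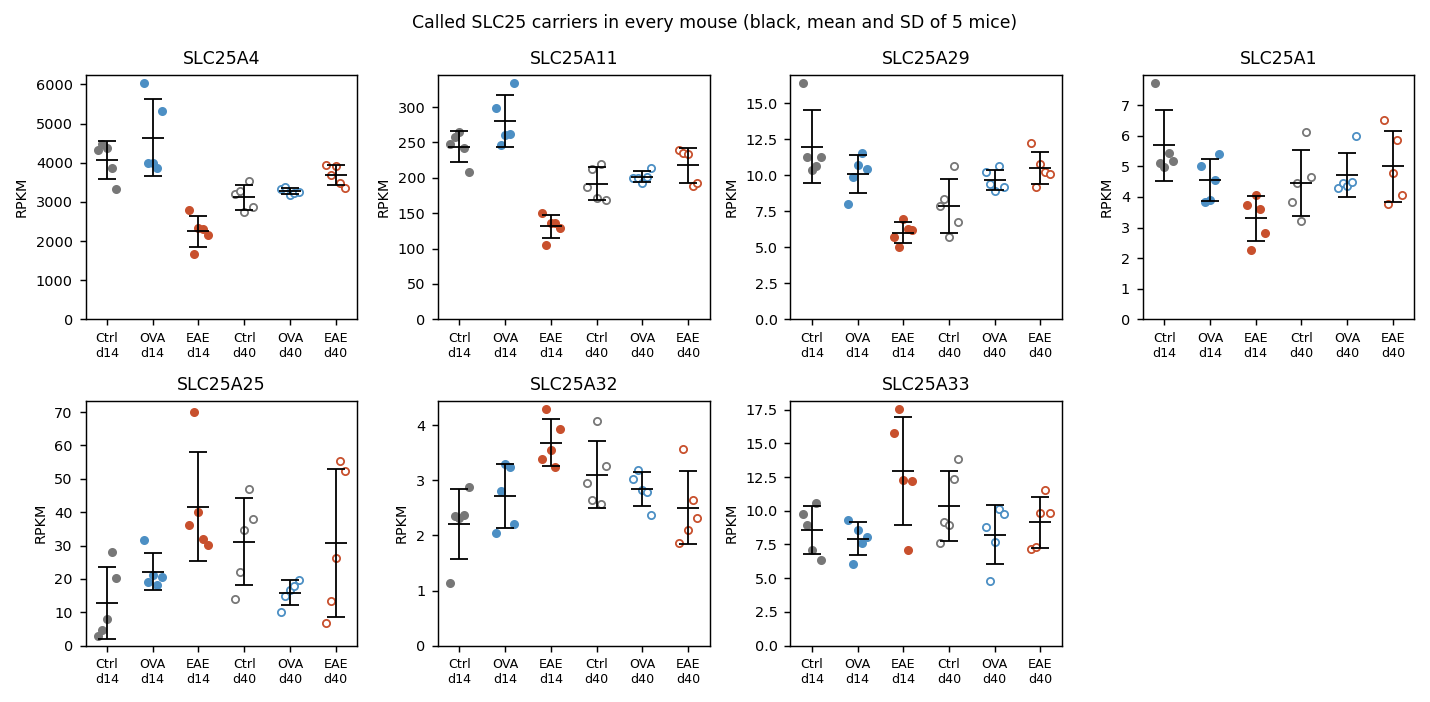
RPKM of 7 carriers in each mouse, by group, with the mean and SD of 5 mice in black; all 7 were called on day 14 in a comparison with EAE. SLC25A4, SLC25A11 and SLC25A29 of the EAE-induced mice of day 14 lay below all 10 control mice of that day, while on day 40 the ranges of all 7 carriers in EAE-induced mice overlapped those of the unimmunized mice.

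Carriers of di- and tricarboxylates and glutamate include both carriers of the malate-aspartate shuttle. SLC25A11 exchanges oxoglutarate for malate (chr11:70644196-70647479, minus strand). SLC25A11 was measured at 247, 257, 264, 243 and 208 RPKM in the unimmunized mice of day 14, at 299, 246, 260.2, 262 and 334 RPKM in the OVA-immunized mice and at 150.1, 105, 137, 136 and 129 RPKM in the EAE-induced mice. The EAE-induced mice were again below all 10 control mice. The mice of day 40 showed 187, 212, 172, 220.2 and 169 RPKM when unimmunized, 199, 200.1, 193, 202 and 214 RPKM after OVA and 239, 236, 233, 189 and 192 RPKM with EAE. The difference on the log2 scale was -0.90 ± 0.12 against unimmunized (adjusted p = 2.96e-05, limma) and -1.09 ± 0.12 against OVA-immunized mice (adjusted p = 7.69e-06, limma).

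SLC25A12, the calcium-regulated aspartate/glutamate carrier of muscle and brain, is the other carrier of the shuttle. SLC25A12 was measured at 131, 191, 194, 195 and 219.6 RPKM in the unimmunized mice of day 14, at 177, 218, 239.7, 235 and 200.2 RPKM in the OVA-immunized mice and at 121, 145, 168, 162 and 150.5 RPKM in the EAE-induced mice. Its EAE-induced mice were below every OVA-immunized mouse and overlapped the unimmunized mice. On day 40 its level was 216, 207, 216, 187 and 184 RPKM in the unimmunized, 203, 203, 203, 207 and 197 RPKM in the OVA-immunized and 197, 238, 199, 204 and 196 RPKM in the EAE-induced mice. Its change was -0.31 ± 0.14 in log2 terms against unimmunized mice (adjusted p = 0.0808, limma) and -0.52 ± 0.14 against OVA-immunized mice (adjusted p = 0.00846, limma), below the fold threshold. SLC25A13, the form of liver, was at 0.301, 0.39, 0.42, 0.415 and 0.334 RPKM in the unimmunized, 0.425, 0.423, 0.500, 0.339 and 0.442 RPKM in the OVA-immunized and 0.541, 0.337, 0.272, 0.38 and 0.35 RPKM in the EAE-induced mice of day 14. On day 40 it was at 0.389, 0.49, 0.416, 0.577 and 0.33, at 0.281, 0.42, 0.642, 0.836 and 0.42 and at 0.49, 0.444, 0.909, 0.529 and 0.199 RPKM in the same order. SLC25A13 thus stayed below 1 RPKM in each mouse, and the ratio of SLC25A12 to SLC25A13 ran from 426 ± 139 in EAE-induced to 511 ± 107 in OVA-immunized mice of day 14.

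SLC25A1 exports citrate, a source of acetyl units for lipid synthesis. SLC25A1 was measured at 7.72, 5.1, 4.98, 5.43 and 5.16 RPKM in the unimmunized mice of day 14, at 5.02, 3.83, 3.9, 4.55 and 5.42 RPKM in the OVA-immunized mice and at 3.73, 2.27, 4.05, 3.62 and 2.82 RPKM in the EAE-induced mice. The EAE-induced mice were below every unimmunized mouse, and overlapped the OVA-immunized mice. By day 40 the unimmunized mice were at 3.82, 4.45, 3.21, 6.12 and 4.66 RPKM, the OVA-immunized mice at 4.29, 4.45, 4.34, 4.5 and 5.97 RPKM and the EAE-induced mice at 6.5, 3.77, 4.78, 5.85 and 4.07 RPKM. On the log2 scale the difference came to -0.78 ± 0.17 against unimmunized (adjusted p = 0.00159, limma) and -0.47 ± 0.17 against OVA-immunized mice (adjusted p = 0.0371), the latter below the fold threshold. The glutamate carrier SLC25A22 was at 7.03 ± 1.73 RPKM (SD, n = 5) in unimmunized and 5.84 ± 0.471 RPKM in EAE-induced mice of day 14 and was not called. The dicarboxylate carrier SLC25A10 was at 1.88 ± 0.134 RPKM in the unimmunized mice of day 14. The glutamate carrier SLC25A18 and the oxodicarboxylate carrier SLC25A21 stayed below 1 RPKM on average in every group. In all, 4 of the 8 members of this list were tested, each with a negative log2 fold change against both controls on day 14, and SLC25A11 was called in both comparisons and SLC25A1 in that with unimmunized mice.

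Among the carriers of cofactors and acylcarnitines, SLC25A32, which carries folate and flavin adenine dinucleotide, rose against unimmunized mice. SLC25A32 was measured at 1.14, 2.36, 2.32, 2.37 and 2.87 RPKM in the unimmunized mice of day 14, at 2.04, 2.8, 3.3, 3.24 and 2.2 RPKM in the OVA-immunized mice and at 3.38, 4.28, 3.55, 3.24 and 3.94 RPKM in the EAE-induced mice. The lowest EAE-induced mouse was above the highest unimmunized mouse, and the OVA-immunized mice reached into the EAE range. The mice of day 40 showed 2.95, 2.64, 4.07, 2.56 and 3.26 RPKM when unimmunized, 3.02, 3.18, 2.82, 2.79 and 2.37 RPKM after OVA and 1.87, 3.57, 2.1, 2.64 and 2.32 RPKM with EAE. In log2 terms the change was 0.76 ± 0.21 against unimmunized mice (adjusted p = 0.00756, limma) and 0.44 ± 0.21 against OVA-immunized mice (adjusted p = 0.104). Its means in unimmunized and OVA-immunized mice were below 3 RPKM, so its own level with EAE admitted it to the test. The call rested on replicate 1 of the unimmunized mice, the one that stood apart: without it the log2 fold change was 0.55, below the fold threshold.

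SLC25A20 exchanges carnitine for acylcarnitine and brings long-chain fatty acids to oxidation. SLC25A20 was measured at 50.5, 51.8, 67.7, 35.8 and 32.6 RPKM in the unimmunized mice of day 14, at 53, 44.1, 49.7, 44.8 and 59.4 RPKM in the OVA-immunized mice and at 34.2, 41.8, 28.6, 37.6 and 47.9 RPKM in the EAE-induced mice. The groups overlapped, with a log2 fold change of -0.30 ± 0.18 against unimmunized mice (adjusted p = 0.189, limma). On day 40 its level was 38.3, 39.3, 30.1, 43.6 and 35.7 RPKM in the unimmunized, 37.6, 41.7, 34.8, 37.1 and 37.2 RPKM in the OVA-immunized and 50.2, 42, 42.9, 34.5 and 38.2 RPKM in the EAE-induced mice. The S-adenosylmethionine carrier SLC25A26 had non-overlapping groups on day 14, at 8.04 to 9.86 RPKM with EAE against 10.4 to 13.4 and 10.8 to 16 RPKM in unimmunized and OVA-immunized mice, with a log2 fold change of -0.46 ± 0.12 that stayed below the fold threshold. The coenzyme A carrier SLC25A42 moved by -0.32 ± 0.13 on the log2 scale against unimmunized mice and was not called. SLC25A16, which is linked to coenzyme A, rose by 0.55 ± 0.15 (adjusted p = 0.00705, limma). Its EAE-induced mice were above every unimmunized mouse, and the change stayed below the fold threshold. SLC25A51, the NAD carrier, was at 16.5 ± 1.25 RPKM in unimmunized and 17.9 ± 0.748 RPKM in EAE-induced mice of day 14. The peroxisomal cofactor carrier SLC25A17 had a log2 fold change of -0.16 ± 0.13.

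Of the amino acid carriers, SLC25A29, which transports basic amino acids and is expressed in muscle, was the only one called on day 14. SLC25A29 was measured at 16.4, 11.2, 10.4, 10.7 and 11.3 RPKM in the unimmunized mice of day 14, at 8.01, 9.91, 10.7, 11.5 and 10.4 RPKM in the OVA-immunized mice and at 5.68, 5.02, 6.93, 6.26 and 6.2 RPKM in the EAE-induced mice. The EAE-induced mice were below all 10 control mice of the day. By day 40 the unimmunized mice were at 7.87, 8.38, 5.72, 10.6 and 6.75 RPKM, the OVA-immunized mice at 10.2, 9.37, 8.91, 10.6 and 9.21 RPKM and the EAE-induced mice at 12.2, 9.15, 10.8, 10.2 and 10.1 RPKM. EAE changed its log2 level by -0.97 ± 0.13 against unimmunized mice (adjusted p = 5.11e-05, limma) and -0.74 ± 0.13 against OVA-immunized mice (adjusted p = 0.000582, limma). On day 40 the log2 fold change against unimmunized mice was 0.43 ± 0.13, which did not pass the adjustment (adjusted p = 0.067, limma). SLC25A29 and SLC25A47 lay head to head on opposite strands of chromosome 12, with 162 bases between their starts, and SLC25A47 stayed between 0.42 and 1.24 RPKM over the 30 mice. The branched-chain amino acid carrier SLC25A44, the ornithine carrier SLC25A15 and the glycine carrier SLC25A38 had log2 fold changes of 0.16 ± 0.13, 0.06 ± 0.08 and -0.21 ± 0.11 against unimmunized mice, none of them called. SLC25A2 and the choline carrier SLC25A48 stayed below 1 RPKM on average.

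The pyrimidine nucleotide carriers SLC25A33 and SLC25A36 supply precursors for mitochondrial RNA and DNA. SLC25A33 was measured at 9.74, 8.98, 7.1, 10.6 and 6.34 RPKM in the unimmunized mice of day 14, at 9.31, 6.05, 8.56, 7.62 and 8.08 RPKM in the OVA-immunized mice and at 15.8, 17.5, 12.3, 7.08 and 12.2 RPKM in the EAE-induced mice. The highest OVA-immunized mouse was at 9.31 RPKM, and 4 of the 5 EAE-induced mice were above it while 1 was within the control range. Its day 14 log2 fold change came to 0.65 ± 0.21 against OVA-immunized mice (adjusted p = 0.0219, limma) and 0.56 ± 0.21 against unimmunized mice (adjusted p = 0.0384), below the fold threshold. This rise was no longer called without replicate 2 of the OVA-immunized mice (log2 fold change 0.56), and without replicate 1 (0.57) or replicate 2 (0.53) of the EAE-induced mice. On day 40 SLC25A33 was at 7.64, 9.15, 8.91, 12.4 and 13.8 RPKM in unimmunized, 8.82, 4.78, 7.66, 10.2 and 9.76 RPKM in OVA-immunized and 7.14, 7.34, 9.85, 11.5 and 9.82 RPKM in EAE-induced mice. SLC25A36, which shares the TGACGTCA match with SLC25A25, had a log2 fold change of 0.28 ± 0.34 (interval -0.45 to 1.00), and its unimmunized mice spanned 1.45 to 5.89 RPKM.

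The mitoferrins import iron for haem and iron-sulphur clusters. SLC25A28 (mitoferrin of most tissues) was at 22.1, 17.1, 19.8, 17.7 and 16.4 RPKM in the unimmunized, 19.3, 14.8, 14.7, 16.1 and 17.9 RPKM in the OVA-immunized and 23.2, 23, 20.7, 20.5 and 26.3 RPKM in the EAE-induced mice of day 14. Its EAE-induced mice were above every OVA-immunized mouse, with a log2 fold change of 0.46 ± 0.11 (adjusted p = 0.00423, limma), below the fold threshold. Against unimmunized mice, which they overlapped, it was 0.29 ± 0.11 (adjusted p = 0.0415, limma), also below that threshold. The mice of day 40 showed 15.8, 18.1, 15.7, 21.6 and 19.1 RPKM when unimmunized, 16.7, 15.3, 16.5, 16.6 and 15.7 RPKM after OVA and 23.7, 17.4, 19.8, 17.5 and 18.5 RPKM with EAE. SLC25A37 is the mitoferrin known from red cell precursors. SLC25A37 was measured at 3.78, 4.71, 4.4, 5.43 and 4.8 RPKM in the unimmunized mice of day 14, at 4.78, 5.49, 4.9, 5.59 and 3.9 RPKM in the OVA-immunized mice and at 5.25, 6.86, 6.01, 4.8 and 6.27 RPKM in the EAE-induced mice. The groups overlapped. On day 40 its level was 6.4, 6.51, 6.74, 5.97 and 6.91 RPKM in the unimmunized, 7.57, 5.94, 6.44, 6.36 and 7.22 RPKM in the OVA-immunized and 6.05, 5.34, 4.6, 4.73 and 4.83 RPKM in the EAE-induced mice. Over the 5 mice of a group, the ratio of SLC25A28 to SLC25A37 on day 40 was 3.8 ± 0.377 with EAE, 2.79 ± 0.499 without immunization and 2.43 ± 0.217 after OVA. On day 14 it was 3.94 ± 0.501, 4.14 ± 1.07 and 3.44 ± 0.827 in the same order. The day 40 ratio with EAE thus lay near the day 14 ratios, and those of the day 40 controls were lower. These ratios were not tested. The erythrocyte markers, unlike SLC25A37, fell on day 14, and all 4 tested were called lower against both controls. The 7 erythrocyte markers in the table summed to 26.5 to 189 RPKM with EAE, 189 to 684 RPKM in unimmunized and 475 to 1587 RPKM in OVA-immunized mice. Their part in the SLC25A37 values was not tested. SLC25A39 was at 42.7 ± 4.14 and 43.1 ± 6.81 RPKM in unimmunized and EAE-induced mice, and its relative SLC25A40 at 2.01 ± 0.551 RPKM in unimmunized mice.

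The members related to uncoupling proteins were low. SLC25A27 was the only one of the 3 tested, at 2.99 ± 0.563 RPKM in unimmunized and 3.14 ± 0.317 RPKM in EAE-induced mice of day 14. SLC25A14 and SLC25A30 were at 1.53 ± 0.266 and 1.7 ± 0.816 RPKM in the unimmunized mice of that day. Of the remaining 8 members, 3 were tested and none was called on day 14: SLC25A46, an outer membrane protein of mitochondrial dynamics (log2 fold change 0.33 ± 0.13 against unimmunized mice), SLC25A35 (-0.44 ± 0.16) and SLC25A34 (-0.52 ± 0.30). SLC25A45 was at 1.88 ± 0.348 RPKM in unimmunized mice, and SLC25A43, SLC25A47, SLC25A53 and SLC25A54 stayed below 1 RPKM on average. Besides SLC25A29 with SLC25A47, 3 pairs of members lay within 50 kb of each other (SLC25A41 with SLC25A23, SLC25A54 with SLC25A24, SLC25A43 with SLC25A5), and in each pair 1 gene was above 3 RPKM in the unimmunized mice of day 14 and the other below 1 RPKM.

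**Figure D4:**
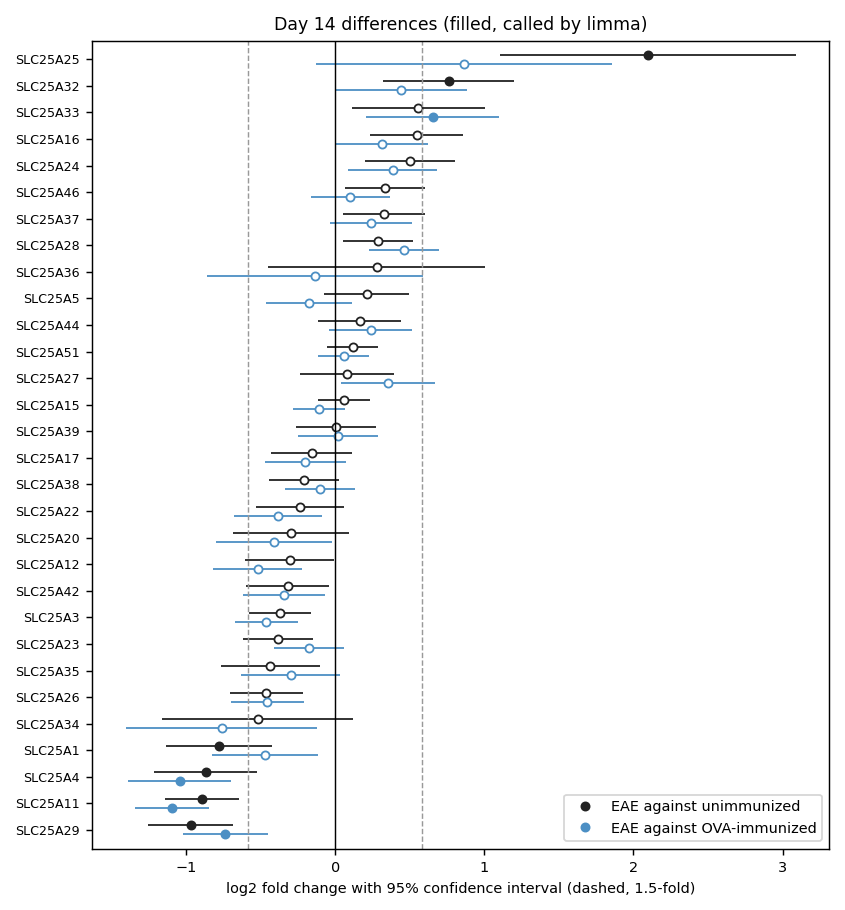
Log2 fold change on day 14 of 30 of the 31 members tested, EAE against unimmunized mice in black and EAE against OVA-immunized mice in blue, with 95% confidence intervals from limma; filled dots were called, and dashed lines mark a 1.5-fold change. SLC25A4, SLC25A11 and SLC25A29 were filled below zero in both comparisons, and SLC25A25 had the highest value against unimmunized mice, with a wide interval.

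Other genes of the same pathways gave the setting. Of the family members with other symbols, MTCH1, an outer membrane protein related to the carriers, rose from 66.3 ± 9.44 RPKM (SD, n = 5) in unimmunized to 120.4 ± 29.1 RPKM in EAE-induced mice of day 14 (log2 fold change 0.83 ± 0.17, adjusted p = 0.000937, limma). The uncoupling protein UCP2 fell by 0.65 ± 0.16 on the log2 scale against unimmunized mice (adjusted p = 0.00357, limma), and the muscle uncoupling protein UCP3 was called lower against OVA-immunized mice (-0.78 ± 0.30, adjusted p = 0.0458) and not called against unimmunized mice (0.19 ± 0.30). MTCH2 was not called. Of 17 nuclear subunits of ATP synthase, which uses what SLC25A4 and SLC25A3 bring in, 12 were called lower against unimmunized and 14 against OVA-immunized mice, with medians of -0.85 and -0.77. The shuttle list held genes of the NADH shuttles (GOT1, GOT2, MDH1, MDH2, GPD1, GPD2), of carnitine (CPT1A, CPT1B, CPT2, CRAT) and of creatine (CKM, CKMT2). Of these, 5 of 11 tested were called lower against unimmunized and 5 of 12 against OVA-immunized mice. Over all genes, 11.8% and 9.28% were called lower. Within the shuttle list, malate dehydrogenase MDH1 changed by -1.08 ± 0.13 and -1.28 ± 0.13, and the glycerol-3-phosphate dehydrogenase GPD1 by -1.49 ± 0.20 and -1.50 ± 0.20, on the log2 scale. CKMT2 was at 1448 ± 289 RPKM (SD, n = 5) in unimmunized and 344 ± 85.0 RPKM in EAE-induced mice of day 14. Of the 12 tested genes of the machinery that imports and inserts carriers, 1 was called higher (TOMM70A, the carrier receptor, 0.67 ± 0.16 against unimmunized mice) and none lower. Of 16 other mitochondrial transport genes tested, 2 were called lower against unimmunized and 1 against OVA-immunized mice, MPC2 of the pyruvate carrier in both. Of 12 haem and iron-sulphur genes tested, 2 were called lower against each control and 1 higher against unimmunized mice.

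Markers of other cell types moved on the same day. The 8 neutrophil markers summed to 217 to 403 RPKM in EAE-induced mice, 67.4 to 233 in OVA-immunized and 4.2 to 10.9 RPKM in unimmunized mice. Of these, 5 were tested, and none of the 5 had a mean above 3 RPKM in unimmunized mice, so the filter admitted only markers that were high after immunization. All 5 were called higher against unimmunized mice with EAE and with OVA. With EAE against OVA the sum followed S100A8, at 225 ± 101 and 46.5 ± 24.4 RPKM (SD, n = 5), whereas 3 of the 5 had negative log2 fold changes and the median was -0.86. The 8 adipocyte markers summed to 598 to 1322, 248 to 571 and 159 to 423 RPKM in the same order. That sum followed CAR3, a carbonic anhydrase that skeletal muscle also expresses, at 957 ± 268 RPKM with EAE and 233 ± 95.1 RPKM in unimmunized mice. The other 4 of the 5 tested had negative log2 fold changes against both controls, with CFD called lower (30.6 ± 9.24 against 63.9 ± 13.3 RPKM in unimmunized mice), and the median of the 5 was -0.30 against unimmunized and -0.32 against OVA-immunized mice. The 6 fibroblast markers summed to 306 to 478, 644 to 866 and 774 to 1369.9 RPKM. The 8 macrophage markers summed to 137 to 307, 272 to 415 and 287 to 435 RPKM, and 5 of 8 were called lower against both controls. The 6 endothelial markers summed to 71.1 to 103, 78 to 142 and 93.7 to 123 RPKM. The 8 slow-fibre markers summed to 1082 to 1861 RPKM with EAE and the 10 fast-fibre markers to 53523 to 67192 RPKM, with 4 of 8 and 1 of 10 called lower against unimmunized mice. No marker in these lists was at 0 in all mice. The part of these shifts in the carrier values was not tested.

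OVA immunization alone left no called member on day 14. None of the 29 members tested in OVA-immunized against unimmunized mice was called by limma, and 2 had an unadjusted p below 0.05, SLC25A25 and SLC25A5. Of all 8471 genes tested, 821 reached that level, so the 2 members are to be read against that background. Over 8471 genes, 0.0944% were called higher and 0.0472% lower. For SLC25A25 the log2 fold change was 1.23 ± 0.47 with an interval of 0.24 to 2.22, and for SLC25A4 it was 0.17 ± 0.16 with an interval of -0.17 to 0.52.

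On day 40, in remission, no member was called in any of the 3 comparisons by limma. Of all genes, 0.069% were called higher and 0.391% lower with EAE against unimmunized mice (8691 tested), 0.0349% and 0.174% against OVA-immunized mice (8598 tested), and 0% and 0% with OVA against unimmunized mice (8706 tested). Unadjusted p-values below 0.05 were reached by 7 of 31, 6 of 30 and 1 of 31 members in these comparisons. Over all genes, 2423 of 8691, 1500 of 8598 and 272 of 8706 reached that level in the same order, so members are to be read against that background. Against unimmunized mice, 3 members had an adjusted p below 0.05 with a change under 1.5-fold. How many of all genes did so was not computed, so this count is not a result about the family. The 3 members were SLC25A27 (-0.47 ± 0.11, adjusted p = 0.0443), SLC25A42 (-0.34 ± 0.09, 0.0472) and SLC25A37 (-0.35 ± 0.09, 0.0468), all lower with EAE. SLC25A27 was at 4.19, 3.68, 3.08, 2.98 and 3.53 RPKM in EAE-induced and 4.98, 5.35, 5.83, 3.89 and 4.36 RPKM in unimmunized mice, and SLC25A42 at 14, 17.4, 13.4, 11.8 and 13 and 17, 17.9, 17.8, 16.4 and 19 RPKM. In both, 1 or more EAE-induced mice lay within the unimmunized range. SLC25A4 had a log2 fold change of 0.24 ± 0.07 against unimmunized mice (adjusted p = 0.0735) and 0.16 ± 0.07 against OVA-immunized mice (adjusted p = 0.262). Over all genes, 6 were higher and 34 lower against unimmunized mice, and with median-of-ratios scaling 10 were higher and 11 lower. The UCP3 gene was called lower against unimmunized mice on day 40 (-0.73 ± 0.15, adjusted p = 0.0236).

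The effect of EAE differed between the days for 10 of 31 members against unimmunized mice and for 6 of 31 against OVA-immunized mice, by limma's test of the difference of effects. Over all genes the shares were 32.7% of 9013 and 21.8% of 8935, against 32.3% and 19.4% of the members, so the counts lay near the background. The difference, day 40 effect minus day 14 effect on the log2 scale, was 1.11 ± 0.18 for SLC25A4 (adjusted p = 2.17e-05) and 1.08 ± 0.14 for SLC25A11 (1.87e-06). It was 1.40 ± 0.19 for SLC25A29 (2.3e-06) and 0.94 ± 0.25 for SLC25A1 (0.00288). These 4 members were lower with EAE on day 14, and on day 40 their values were near to or above those of the unimmunized mice. For SLC25A25 and SLC25A32 it was -2.39 ± 0.71 (adjusted p = 0.0075) and -1.07 ± 0.27 (0.002). SLC25A35 (0.59 ± 0.19), SLC25A24 (-0.66 ± 0.20) and SLC25A37 (-0.68 ± 0.15) were called as well. Against OVA-immunized mice, the members called included SLC25A4 (1.21 ± 0.18), SLC25A11 (1.20 ± 0.14), SLC25A29 (0.85 ± 0.19), SLC25A27 (-0.71 ± 0.18) and SLC25A37 (-0.63 ± 0.15). Not called there were SLC25A25 (-0.28 ± 0.71, adjusted p = 0.78, limma), SLC25A32 (-0.65 ± 0.27, 0.0595) and SLC25A1 (0.53 ± 0.25, 0.0914). SLC25A35 and SLC25A24 were not called against OVA-immunized mice either. In unimmunized mice SLC25A4 was at 4071 ± 483 RPKM (SD, n = 5) on day 14 and 3118 ± 321 RPKM on day 40, a difference that was not tested. SLC25A25 went from 12.8 ± 10.9 to 31.1 ± 13.1 RPKM in unimmunized mice. With EAE it went from 41.7 ± 16.3 to 30.8 ± 22.1 RPKM, and neither change was tested. Day of collection and any batch that went with it cannot be told apart. The median of all genes in the difference of effects was -0.15 and moved to -0.02 with median-of-ratios scaling, under which SLC25A24 and SLC25A37 were no longer called, the latter against either control. With a pseudocount of 1 RPKM in place of 0.1 RPKM, the calls of SLC25A35, SLC25A24 and SLC25A37 against unimmunized mice and of SLC25A27 and SLC25A37 against OVA-immunized mice were lost. The call of SLC25A35 was lost in 9 of 20 fits that left out 1 mouse, with differences of 0.49 to 0.58. The call of SLC25A24 was lost without replicate 1 of the unimmunized or of the EAE-induced mice of day 14 or replicate 3 of the unimmunized mice of day 40 (-0.58, -0.57 and -0.58). Against OVA-immunized mice, the call of SLC25A37 was lost without OVA replicate 5 or EAE replicate 2 of day 14 or OVA replicate 1 of day 40 (-0.55, -0.57 and -0.58).

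**Figure D5:**
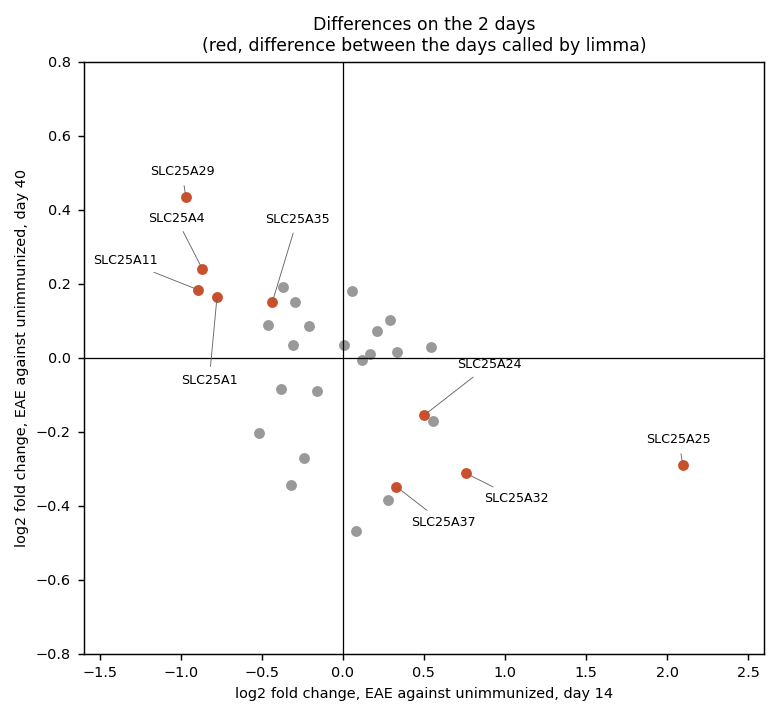
Log2 fold change of EAE against unimmunized mice on day 14 (horizontal axis) and on day 40 (vertical axis) for 30 of the 31 members tested on both days, from limma; red points are 9 of the members whose effect differed between the days. SLC25A29, SLC25A11, SLC25A4 and SLC25A1, lower on day 14, lay above zero on day 40, and SLC25A25 and SLC25A32 lay below zero.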

How the data were processed

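Poly(A) RNA of EDL muscle from 30 mice was sequenced as paired reads from a directional library. According to the study's methods and processing notes, reads were aligned to mm10 with Subread, counted over RefSeq transcripts with featureCounts and turned into RPKM. The authors deposited 1 table of log2 values, which held log2(RPKM + 1): back-transformed values times exon length summed to 0.98 of the total that RPKM implies (median mouse), against 0.128 if the values were read as RPKM, and 0.0001 stood for zero. How reads that match several genes were treated is not given in the sources used here.

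Values were turned back to RPKM. Differences were tested on log2(RPKM + 0.1) with limma 3.58.1 (R 4.3.3, trend on) in 1 model per day, and over all 30 mice for the difference between days. Fold changes understate changes of low genes on this scale. Genes with a mean above 3 RPKM in a compared group were tested, with Benjamini-Hochberg adjustment over them, and called at an adjusted p below 0.05 and a change above 1.5-fold. These settings follow the study's methods, except that a count test needs counts. The script was tested on simulated data. Shares were compared by exact permutation tests (scipy 1.17.1). Positions and lengths came from GENCODE on GRCm38. Values in all mice are given for the 5 most abundant members, members called without overlap and close pairs. Values of SLC25A33, called with overlapping groups, were added. Day 40 values of SLC25A27 and SLC25A42 in EAE-induced and unimmunized mice were added too. Other genes were named from lists. One member was counted in the totals and is not reported here. The members and lists were chosen with earlier results of these data known. The effect of alternative pseudocounts, filters and scalings, and of leaving out each mouse, is given at the end. The p-values rest on separate mice.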

Additional observations from a re-analysis of the deposited data

Results flagged for a closer look

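In 192 groups of 5 mice (31 carriers and 1 share in 6 groups), 18 values stood far from the others of their group by Dixon's test, where chance gives about 9.6. Replicate 1 of the unimmunized mice of day 14 accounted for 4 of them, with SLC25A1 at 7.72 RPKM and SLC25A29 at 16.4 RPKM as the highest, and SLC25A16 at 4.47 RPKM and SLC25A46 at 8.28 RPKM as the lowest of the group. In the same group, SLC25A26 stood out at 10.4 RPKM in replicate 5 and SLC25A34 at 23.9 RPKM in replicate 3. Among OVA-immunized mice of day 14, replicate 1 stood out with SLC25A25 at 31.7 RPKM, SLC25A26 at 16.0 RPKM and an SLC25A4 share of 99.2%, and replicate 5 with SLC25A5 at 64.9 RPKM. Among EAE-induced mice of that day, replicate 2 stood out with SLC25A25 at 70.0 RPKM and replicate 5 with SLC25A23 at 5.88 RPKM.

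On day 40 the mice were unimmunized replicate 1 (SLC25A22, 5.97 RPKM), OVA replicates 1 (SLC25A5, 34.6 RPKM), 2 (SLC25A38, 8.03 RPKM) and 5 (SLC25A1, 5.97 RPKM), and EAE replicates 2 (SLC25A12, 238 RPKM) and 4 (SLC25A17, 7.14 RPKM).

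The effect of EAE against unimmunized mice differed between the days by limma's test for several members. The difference, day 40 minus day 14 on the log2 scale, was 1.40 for SLC25A29, 1.11 for SLC25A4, 1.08 for SLC25A11, 0.94 for SLC25A1 and 0.59 for SLC25A35. It was -2.39 for SLC25A25, -1.07 for SLC25A32, -0.68 for SLC25A37 and -0.66 for SLC25A24. Against OVA-immunized mice it was 1.21 for SLC25A4, 1.20 for SLC25A11, 0.85 for SLC25A29, -0.63 for SLC25A37 and -0.71 for SLC25A27.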

How the results depend on the processing

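No log2 fold change of a called member changed sign under any alternative run. With median-of-ratios scaling, the median over all genes on day 40 turned from -0.05 to 0.04 with EAE against unimmunized and from -0.04 to 0.03 against OVA-immunized mice, and with OVA against unimmunized mice it turned from -0.0039 to 0.0051 on day 14 and from -0.0019 to 0.018 on day 40. Without the fold threshold, 8 members were higher and 9 lower with EAE against unimmunized mice on day 14, and 3 higher and 10 lower against OVA-immunized mice. On day 40, 3 were lower against unimmunized mice. The EAE against OVA effect differed between days for 10 members. How many of all genes passed without that threshold was not computed. At an unadjusted p below 0.05 (limma), day 14 gave 19 of 31 members and 4855 of 8771 genes against unimmunized mice. Against OVA-immunized mice these were 17 of 31 members and 4155 of 8674 genes. With a pseudocount of 1 RPKM, 1 member was higher against unimmunized mice on day 14 and the call of SLC25A32 was lost (0.57), as were the differences between days of SLC25A35 (0.46), SLC25A24 (-0.53) and SLC25A37 (-0.58) against unimmunized and of SLC25A37 (-0.54) and SLC25A27 (-0.56) against OVA-immunized mice. Higher members against OVA-immunized mice on day 14 numbered 3 with no filter and 2 in a fit of the compared groups only. The cause of these shifts was not tested, except that a threshold removed adds genes by construction. Leaving out 1 mouse at a time gave 2 to 4 higher (4 without unimmunized replicate 4 or 5) and 5 to 5 lower members against unimmunized mice on day 14, 0 to 1 higher (0 without OVA replicate 2 or EAE replicate 1 or 2) and 4 to 5 lower against OVA-immunized mice, and 9 to 13 and 5 to 8 members whose effect differed between days. The SLC25A4 share differed by -1.14 to -0.874 percentage points with EAE against unimmunized and -0.985 to -0.723 against OVA-immunized mice of day 14, and by -0.232 to -0.0867 with OVA against unimmunized mice. The call of SLC25A35 was lost without unimmunized replicate 2 or 5 or EAE replicate 2 or 5 of day 14, or unimmunized replicate 1 or 5 or EAE replicate 3, 4 or 5 of day 40. Leaving out the 2 mice of day 14 that stood apart was chosen after seeing the data.

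Replicate numbers are shared by the groups. The correlation of deviations of same-numbered mice ran from -0.73 to 0.70 over 30 pairs. Of these, 8 were above 0.1. In 3 of the 30 pairs, all on day 14, the same-numbered mouse was the closest of the 5 in the other group. Without any pairing, each of those 5 would be equally likely to be the closest. The replicate 1 mice of day 14 deviated together. Their correlation was 0.61 for unimmunized with OVA-immunized, 0.51 for unimmunized with EAE-induced and 0.70 for OVA-immunized with EAE-induced mice. The cause was not tested. With the replicate block, 2 members were higher and 5 lower against unimmunized mice on day 14, 1 and 5 against OVA-immunized mice, 0 were called on day 40, and 11 and 6 differed between days. The share of all genes was not computed for this fit or for those that left out 1 mouse. With 5 mice a group, members below 3 RPKM, 16 of 47, were not tested.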
